A study of Mus musculus with 11 samples.

Results

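The ephrin-A ligands are the 5 genes Efna1, Efna2, Efna3, Efna4 and Efna5, taken by name from the 54752 gene identifiers of the count files. All 5 passed the filter on low counts, which kept 15907 of the 33170 genes with at least 1 count. They were measured by bulk RNA-seq in neurons isolated from 3 sensory nuclei of the newborn mouse thalamus. These were the visual dorsolateral geniculate nucleus (dLG, 4 libraries), the somatosensory ventral posteromedial nucleus (VPM, 4 libraries), which serves the face and whiskers, and the auditory ventral part of the medial geniculate nucleus (MGv, 3 libraries). All 3 groups shared 1 genotype, Gbx2CreER-IRES-EGFP/+::R26lsl-tdTomato/+, on the ICR/CD-1 background, at postnatal day 0. By their labels they differed only in the nucleus dissected. Cre recombinase was induced with tamoxifen, so that tdTomato marked cells in which Gbx2, a gene of early postmitotic thalamic neurons, was active at that time, and red cells were sorted. Each library came from 4 pooled brains, so that the spread between libraries is not that between single animals. The labels give no sex and do not say whether libraries of different nuclei came from the same brains.

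Ephrin-A proteins are held on the outer face of the cell membrane by a glycosylphosphatidylinositol (GPI) anchor and bind EphA receptor tyrosine kinases on neighbouring cells. Binding signals forward into the cell that carries the receptor, often driving growth cones away, and in reverse into the cell that carries the ephrin. In the visual system, graded ephrin-A ligands in the dLG and superior colliculus order the arriving retinal axons. Graded EphA receptors and ephrin-A ligands also guide thalamic axons through the subpallium and within cortical areas.

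The libraries held 10175653 to 23559130 counts, with at most 13164909 in the MGv libraries and at least 15867673 in the others. A count of 0 in a single library allowed a level of up to 0.129 to 0.292 CPM (counts scaled to a common library size of 1000000), a limit that covers counting error only. Neuronal markers were abundant, since the 8 pan-neuronal genes summed to 10458 to 15013 CPM and the 8 thalamic neuron genes to 2313 to 3718 CPM. Single genes differed between nuclei. Between dLG and MGv all 8 thalamic genes had an edgeR adjusted p under 0.1, 4 higher in each nucleus, beside 16.1% of all genes tested. Mean Gbx2 was 304 CPM in MGv against 29.4 in dLG and 35.3 in VPM. Mean Nefm, a pan-neuronal gene, was 286 CPM in MGv against 837 and 1215. The part of such differences in the comparisons with MGv was not tested. Markers of other cells summed to less than the neuronal lists. The sums were 0.292 to 6.67 CPM for 6 endothelial genes, 1.84 to 5.50 CPM for 3 pericyte genes and 1.14 to 13.2 CPM for 5 microglial genes. They were 1.16 to 4.80 CPM for 5 oligodendrocyte lineage genes and 57.0 to 192 CPM for 7 genes of astrocytes and radial glia. The 5 ligands themselves stood at 0.0878 to 59.5 CPM in single libraries. Genes of GABAergic neurons summed to 0.382 to 5.19 CPM, those of cortical neurons to 0.763 to 5.15 CPM and those of the habenula to 14.7 to 46.3 CPM. The 10 genes of the response to tissue dissociation summed to 480 to 736 CPM in dLG, 283 to 381 CPM in VPM and 612 to 832 CPM in MGv. Replicate 2 of dLG, replicate 3 of VPM and replicate 1 of MGv stood apart from the rest. In these 3 libraries Hspa8, which encodes a constitutive heat shock protein, was at 3.05, 4.09 and 5.56 CPM, against 159 to 581 CPM in the other 8. They are called the low-Hspa8 libraries here, and the values that rest on them are given with and without them. In bulk samples fewer cells that express a gene and less RNA per cell cannot be told apart.

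Efna2 was the ephrin-A gene that set dLG neurons apart from both other nuclei. Efna2, Efna3 and Efna5 were expressed at 13.7 to 59.5 CPM in all libraries, whereas Efna1 stood at a few CPM and Efna4 at about 1 CPM or less. Genes were called at an edgeR quasi-likelihood adjusted p under 0.1. Between dLG and VPM 1 of the 5 ligands was called, where 10.7% of all genes tested were called. In that comparison limma voom called 4 of the 5 ligands, all but Efna5, and 4414 genes in place of 1704. Between dLG and MGv 2 of the 5 were called, with 16.1% of all genes called, and in both comparisons the called ligands were higher in dLG. Between VPM and MGv 0 of the 5 were called, with 19.0% of all genes called, and Efna1 alone had an unadjusted p under 0.05. DESeq2 called 1 ligand in that comparison and limma voom called 0. With so few members these counts cannot be set apart from the background shares. The median log2 fold change of the 5 genes was 0.40 for dLG against VPM, 0.16 for dLG against MGv and 0.19 for VPM against MGv, beside medians of 0.0048, 0.015 and 0.022 over all genes tested.

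**Figure D1:**
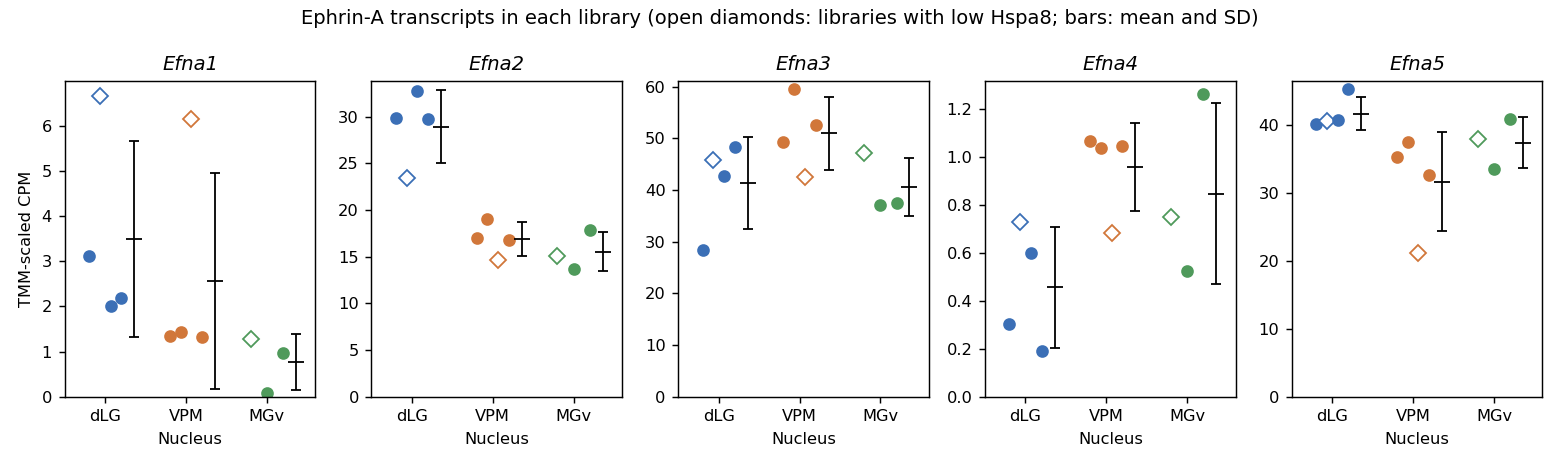
TMM-scaled CPM (y axis, a separate scale for each gene) of the 5 ephrin-A genes in each library of dLG, VPM and MGv (x axis). Points are libraries, open diamonds the 3 low-Hspa8 libraries, and bars the mean and SD. The 4 dLG libraries of Efna2, at 23.5 to 32.7 CPM, lie above every VPM and MGv library, while Efna1 has its 2 highest values in low-Hspa8 libraries of dLG and VPM.

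Efna2 encodes a ligand of the visual pathway and lies on the plus strand of chromosome 10 (ENSMUSG00000003070, GRCm38, chr10:80179482-80190010). It stood at 29.8, 23.5, 32.7 and 29.7 CPM in dLG replicates 1 to 4. It stood at 17.0, 19.1, 14.7 and 16.8 CPM in VPM replicates 1 to 4 and at 15.1, 13.7 and 17.9 CPM in MGv replicates 1 to 3. The lowest dLG library lay above the highest library of either other nucleus, while the VPM and MGv libraries overlapped. The means were 28.9 ± 3.91 CPM in dLG (SD, n = 4), 16.9 ± 1.79 in VPM (n = 4) and 15.6 ± 2.13 in MGv (n = 3). These rest on 490 to 623 counts per dLG library, 237 to 441 per VPM library and 156 to 201 per MGv library.

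Efna2 was 1.71-fold higher in dLG than in VPM, with a log2 fold change of 0.77 ± 0.16 (SE, 95% interval 0.43 to 1.12; edgeR adjusted p = 0.00948). Against MGv it was 1.86-fold higher in dLG, with a log2 fold change of 0.90 ± 0.18 (interval 0.51 to 1.28; edgeR adjusted p = 0.00464). Both differences exceeded the spread between libraries and kept their call in each of the 24 alternatives tried. Without the low-Hspa8 libraries they were 0.81 and 0.95. VPM and MGv differed in Efna2 by a log2 fold change of 0.12 ± 0.18 (interval -0.26 to 0.50; edgeR adjusted p = 0.711), so that a difference of up to 0.50 between these nuclei remains within the interval. Of the 10 genes of the dissociation response, 5 were called higher in dLG than in VPM, and 1, Fosb, was called higher in MGv than in dLG. The part of this response in the Efna2 differences was not tested.

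Efna3 and Efna5 were the other well-expressed ligands, and neither passed edgeR's test in any comparison. Efna3 (ENSMUSG00000028039, minus strand of chromosome 3, chr3:89313899-89322965) encodes an ephrin-A that is also found on hippocampal astrocytes, where it signals to EphA4 on dendritic spines. It stood at 28.4, 45.8, 42.7 and 48.4 CPM in dLG, at 49.3, 59.5, 42.5 and 52.6 CPM in VPM and at 47.1, 37.1 and 37.5 CPM in MGv. The ranges of all 3 nuclei overlapped, and the lowest value was that of dLG replicate 1. The log2 fold changes were -0.30 ± 0.17 for dLG against VPM (edgeR adjusted p = 0.371), 0.03 ± 0.19 for dLG against MGv (adjusted p = 0.961) and 0.33 ± 0.19 for VPM against MGv (adjusted p = 0.292). Their 95% intervals ran from -0.68 to 0.07, from -0.38 to 0.43 and from -0.08 to 0.74, so that differences of up to these sizes are compatible with the data. With limma voom Efna3 was called lower in dLG than in VPM (-0.48, adjusted p = 0.0447). The sign of the dLG against MGv value turned in 6 of 24 alternatives. Of the exon bases of Efna3, 14.1% overlap Gm15998, a gene on the opposite strand, and whether the counting used strand was not stated.

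Efna5 (ENSMUSG00000048915, minus strand of chromosome 17, chr17:62604184-62881317) spans the longest locus of the family and, like Efna2, encodes a ligand known from the mapping of retinal axons. It stood at 40.1, 40.5, 40.7 and 45.2 CPM in dLG, at 35.3, 37.4, 21.1 and 32.6 CPM in VPM and at 37.9, 33.4 and 40.8 CPM in MGv. All dLG libraries lay above all VPM libraries, with the MGv libraries spread across both. The log2 fold change of dLG against VPM was 0.40 ± 0.17 (interval 0.03 to 0.76), which had an unadjusted p of 0.0344 and did not pass after adjustment (edgeR adjusted p = 0.197). The low value of VPM came in part from its low-Hspa8 library, replicate 3 at 21.1 CPM, and without the low-Hspa8 libraries the log2 fold change was 0.26. Against MGv the values were 0.16 ± 0.18 for dLG (adjusted p = 0.673) and -0.24 ± 0.18 for VPM (adjusted p = 0.435).

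Efna1, a ligand that is known for its expression in blood vessels as well as in neurons, was the most variable member. The gene lies on the minus strand of chromosome 3 (ENSMUSG00000027954, chr3:89271733-89281142). It stood at 3.11, 6.66, 2.02 and 2.20 CPM in dLG, at 1.34, 1.43, 6.14 and 1.33 CPM in VPM and at 1.28, 0.0878 and 0.972 CPM in MGv. The 2 highest values were those of the low-Hspa8 libraries of dLG and VPM, and the lowest, MGv replicate 2, rested on 1 count. Every dLG library lay above every MGv library. Among the 8 other libraries the 3 nuclei did not overlap, with 2.02 to 3.11 CPM in dLG, 1.33 to 1.43 in VPM and 0.0878 to 0.972 in MGv.

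The log2 fold change of Efna1 was 2.15 ± 0.78 for dLG against MGv (interval 0.47 to 3.82; edgeR adjusted p = 0.0987), which lay just under the threshold. This call was lost when any library but VPM replicate 3 was left out. Without dLG replicate 2 the value was 1.62 (edgeR adjusted p = 0.220) and without MGv replicate 2 it was 1.63 (adjusted p = 0.232). Without the low-Hspa8 libraries together it was 2.20 (adjusted p = 0.0658), and it stayed positive in all 23 alternatives that gave a value. For dLG against VPM the log2 fold change was 0.47 ± 0.63 (adjusted p = 0.761), with values of -0.08 without dLG replicate 2 (adjusted p = 0.967), 1.36 without VPM replicate 3 (adjusted p = 0.183) and 0.83 without the low-Hspa8 libraries (adjusted p = 0.383). None of these passed the test, whereas limma voom gave 1.02 (adjusted p = 0.0810), under the threshold. For VPM against MGv it was 1.68 ± 0.78 (adjusted p = 0.181), and 0.79 without VPM replicate 3 (adjusted p = 0.483).

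Of the 6 endothelial marker genes, Cdh5 was at 0 in all libraries, and the sum of the list was 2.36 to 6.35 CPM in dLG, 2.67 to 6.67 in VPM and 0.292 to 2.28 in MGv. The low-Hspa8 libraries of dLG and VPM, which were highest in Efna1, had the lowest endothelial sums of their nuclei, at 2.36 and 2.67 CPM. The members of the list did not move together. Tek made up most of the dLG sum, with a mean of 3.63 CPM in dLG, 1.58 in VPM and 0.0878 in MGv, whereas Kdr was at 0.0718, 2.10 and 0.706 CPM. The part of endothelial RNA in the difference from MGv was not tested.

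Efna4 was near the limit of detection. It lies on the minus strand of chromosome 3 (ENSMUSG00000028040, chr3:89333390-89338028), and the library counts were 4 to 17 in dLG, 11 to 24 in VPM and 6 to 13 in MGv. It stood at 0.304, 0.730, 0.599 and 0.191 CPM in dLG, at 1.07, 1.04, 0.682 and 1.05 CPM in VPM and at 0.751, 0.527 and 1.26 CPM in MGv. The dLG and VPM ranges overlapped by their low-Hspa8 libraries, which held the highest dLG and the lowest VPM value. The log2 fold change of dLG against VPM was -1.05 ± 0.53 (interval -2.20 to 0.09; edgeR adjusted p = 0.290), and the interval holds both a large difference and none. Without the low-Hspa8 libraries it was -1.51 (adjusted p = 0.166), and limma voom gave -1.52 with all libraries (adjusted p = 0.0291), under the threshold. Against MGv the values were -0.87 ± 0.59 for dLG (adjusted p = 0.414) and 0.19 ± 0.58 for VPM (adjusted p = 0.867), or -1.29 and 0.22 without the low-Hspa8 libraries. Of the exon bases of Efna4, 10.5% overlap the opposite-strand gene 4731419I09Rik.

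**Figure D2:**
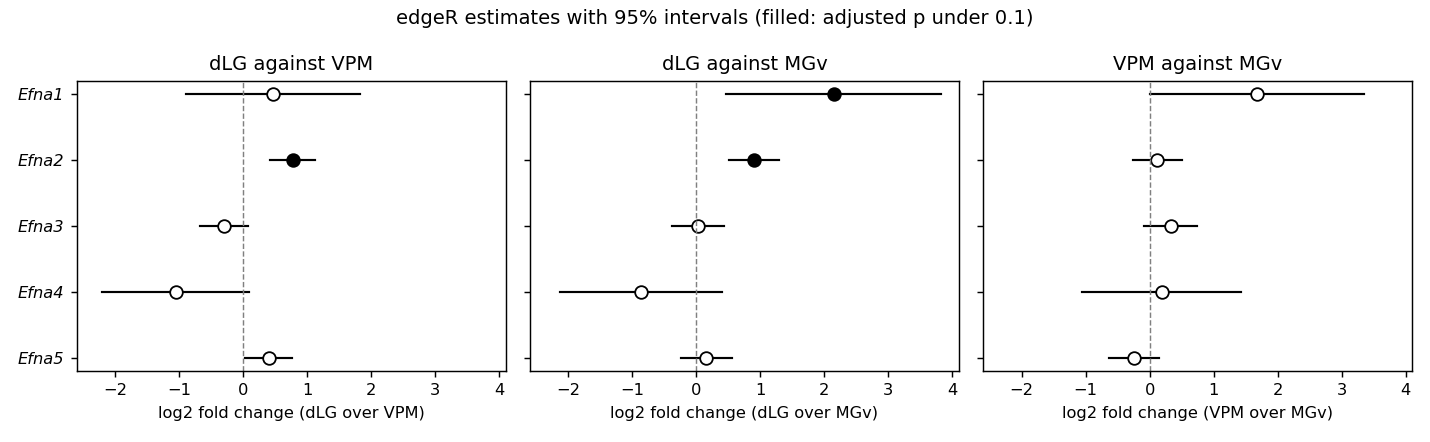
Log2 fold changes (x axis) of the 5 ephrin-A genes (y axis) between nuclei, from edgeR's fit of all 15907 genes, with 95% intervals as lines. Filled points had an adjusted p under 0.1, which were Efna2 at 0.77 and 0.90 and Efna1 at 2.15, and the intervals of Efna1 and Efna4 are the widest.

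To compare genes with one another, levels were divided by the exon length of each gene and are given as CPM per kb. In dLG neurons Efna3 stood at 17.0 ± 3.66 CPM per kb, Efna2 at 13.6 ± 1.84, Efna5 at 10.3 ± 0.598, Efna1 at 1.91 ± 1.18 and Efna4 at 0.285 ± 0.157 (SD, n = 4). Library ranges of Efna3 and Efna2 overlapped, as did those of Efna2 and Efna5, and in dLG replicate 1 Efna2 was above Efna3. In VPM neurons Efna3, at 20.9 ± 2.92 CPM per kb (n = 4), was above the other genes in every library, and Efna2 and Efna5 overlapped at 7.93 ± 0.840 and 7.84 ± 1.81. In MGv neurons Efna3 again came first at 16.7 ± 2.32 CPM per kb (n = 3), and Efna5 and Efna2 followed at 9.28 ± 0.923 and 7.30 ± 1.00 with overlapping ranges. Efna1 and Efna4 came last in each nucleus, with separate ranges in dLG and VPM and overlapping ranges in MGv, at 0.426 ± 0.338 and 0.530 ± 0.236 CPM per kb. Thus the order of Efna2 and Efna5 by their means differed between nuclei, Efna2 being above Efna5 in dLG and below it in MGv.

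The summed level of the 5 genes was 43.1 ± 3.85 CPM per kb in dLG, 38.7 ± 4.40 in VPM and 34.2 ± 3.46 in MGv, with ranges that overlapped between dLG and VPM and between VPM and MGv. Efna2 took 25.0% to 37.3% of this sum in the dLG libraries, 20.3% to 20.8% in VPM and 19.1% to 23.8% in MGv. The lowest dLG share was that of its low-Hspa8 library, and it lay above every share of the other nuclei. Efna3 took 39.1% ± 5.52 in dLG, 54.0% ± 1.68 in VPM and 48.8% ± 4.47 in MGv, and the share of Efna5 was 24.1% ± 1.77, 20.1% ± 3.07 and 27.2% ± 1.66. These shares add up to the whole within a library, so that a higher share of 1 gene lowers the others, and they were not tested. Reads come from gene bodies of different length and sequence, and a level per length takes no account of which isoform was expressed.

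**Figure D3:**
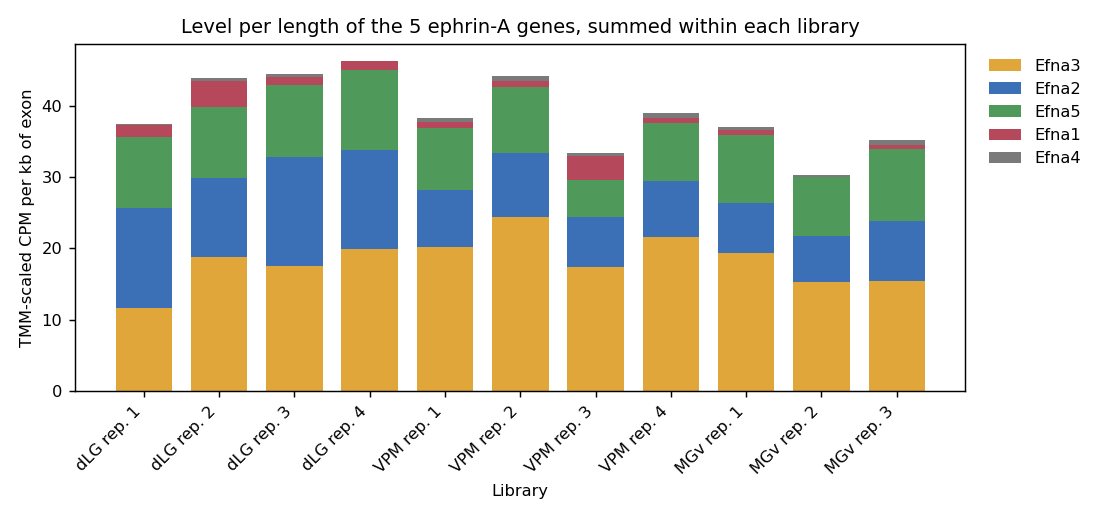
TMM-scaled CPM per kb of exon (y axis) of the 5 ephrin-A genes, stacked within each of the 11 libraries (x axis). Efna3 is the largest part in all libraries but dLG replicate 1, and Efna2 takes 25.0% to 37.3% of the stack in dLG against 19.1% to 23.8% in VPM and MGv.

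Efna1, Efna3 and Efna4 lie close together on the minus strand of chromosome 3, whereas Efna2 and Efna5 are alone on theirs. The 3 clustered genes differed in level, and in the comparisons with dLG their values differed in sign. Between dLG and VPM their log2 fold changes were 0.47, -0.30 and -1.05, and between dLG and MGv they were 2.15, 0.03 and -0.87. Between VPM and MGv all 3 were positive, at 1.68, 0.33 and 0.19. Of these values only that of Efna1 in dLG against MGv was called, and the genes were not tested against one another. Within 100 kb of the cluster lay 30 other genes, of which 20 were tested. Of these, 2 were higher in VPM than in dLG. Between dLG and MGv 1 was higher in dLG and 3 in MGv, and between VPM and MGv 1 was higher in VPM and 2 in MGv. Over all genes tested 10.7%, 16.1% and 19.0% were called in these comparisons, and the counts of neighbours are near these shares. Of the 9 neighbour calls 5 were kept in every alternative. The gene beside Efna4, Adam15, a membrane metalloprotease, was at 20.9, 22.0 and 22.9 CPM in dLG, VPM and MGv and passed in no comparison. The neighbour with the largest called difference was Gm15417, chosen after its values were seen, at 28.0, 30.2 and 6.40 CPM, with log2 fold changes over MGv of 2.12 ± 0.33 in dLG and 2.23 ± 0.33 in VPM (edgeR adjusted p = 0.000777 and 0.000574).

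**Figure D4:**
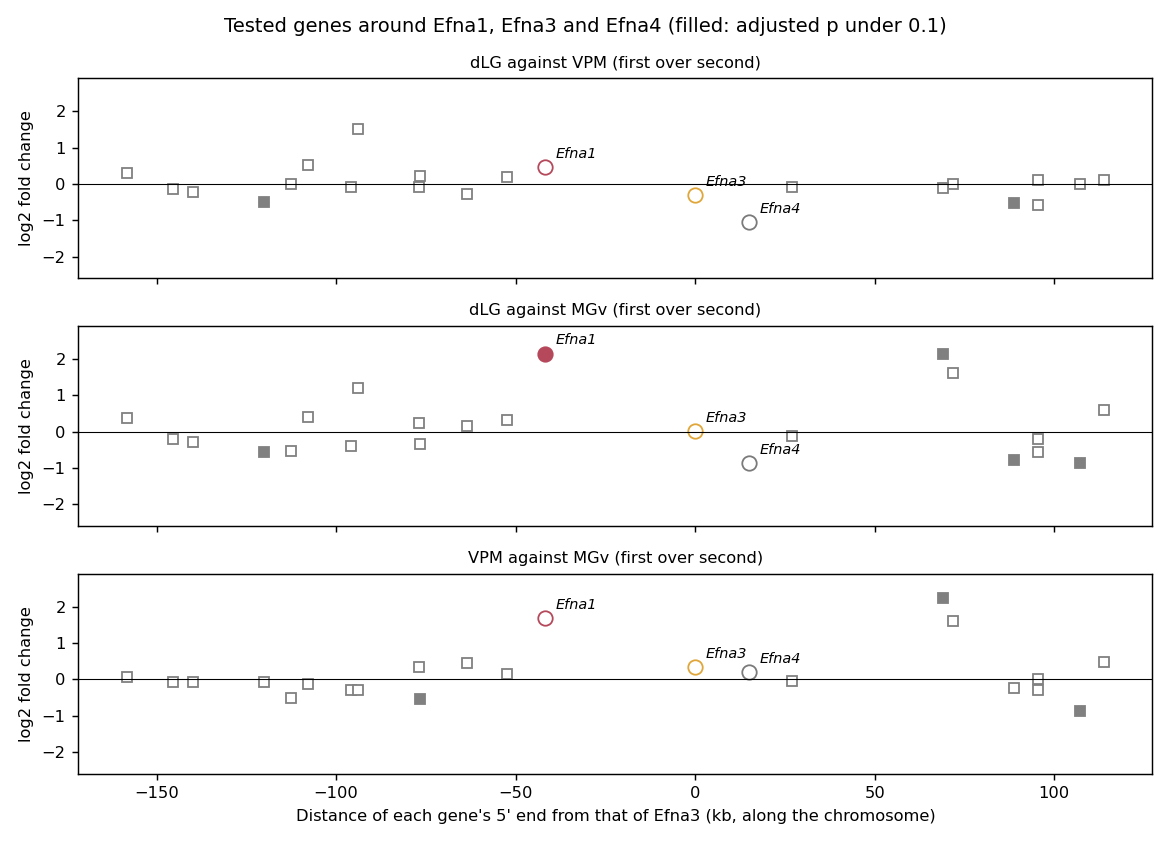
Log2 fold change (y axis) of the 20 tested neighbours (squares) and of Efna1, Efna3 and Efna4 (circles) against the distance of each gene's start from that of Efna3 in kb (x axis), for the 3 comparisons. Filled symbols had an edgeR adjusted p under 0.1; Efna1 is filled in dLG against MGv, and the genes that adjoin the cluster are open.

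The genes whose pattern was most like that of Efna2 over the 11 libraries were sought among 10480 other genes of at least 5 CPM on average, by the root mean square difference of centred log2 CPM. The 5 nearest were Rin2, which encodes a regulator of Rab5, at 0.10, Lrtm2 at 0.13, Rdx, which encodes the membrane-cytoskeleton linker radixin, at 0.14, B3gat2, a glucuronyltransferase gene, at 0.14, and Lgi1, which encodes a secreted synaptic protein, at 0.14. The SD of Efna2 itself on this scale was 0.45, so these genes followed it closely. The 5 nearest to Efna1, whose SD was 1.37, were looser. Their differences were 0.66 for Gstt2, 0.68 for Dynlt1f, 0.70 for Gm26793, 0.71 for B2m and 0.76 for D16Ertd472e. Dynlt1f was called in no comparison, whereas the others were called higher in dLG than in MGv, so this likeness need not follow the nucleus. Likeness over 11 libraries from the same dissections is a description, and the libraries share their preparation.

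Several of the receptors that ephrin-A ligands bind were lower in MGv than in the other nuclei. Of 9 EphA receptor genes 8 were tested, and Epha2 was too low, at 0 in all MGv libraries and at most 0.248 CPM elsewhere. Between dLG and MGv 4 of 8 were higher in dLG, with a median log2 fold change of 0.79. Between VPM and MGv 5 of 8 were higher in VPM and 1 in MGv, with a median of 1.14. Between dLG and VPM 1 was higher in each nucleus, with a median of -0.10. The shares of all genes called, in either direction, were 16.1%, 19.0% and 10.7% in these comparisons. The same shares hold beside the counts of the lists that follow. Without the low-Hspa8 libraries, a setting chosen after the data were seen, the first comparison also called 1 receptor higher in MGv, and the second called 4 receptors, all higher in VPM. The calls of Epha1 and Epha8 in VPM against MGv and of Epha7 in dLG against VPM were lost in 8, 7 and 8 alternatives. Among the glial markers Slc1a3, which encodes a glutamate transporter of astrocytes and radial glia, also separated MGv, at 45.5 to 90.3 CPM against 1.10 to 17.9 in dLG and 3.23 to 10.3 in VPM (edgeR adjusted p = 0.00444 and 0.00626). The glial genes did not move together. Of the 6 tested, 2 were called in each comparison with MGv, all higher in MGv, and 4 were not called. Beside Slc1a3 these were Aldoc against dLG and Aqp4 against VPM. Aldoc was also lower in dLG than in VPM (-2.51, edgeR adjusted p = 0.00103). Mean Fabp7 was lower in MGv, at 35.3 CPM against 65.5 in dLG and 64.5 in VPM, and was not called. The sum of the 7 glial genes overlapped between nuclei, at 57.0 to 140 CPM in dLG, 86.8 to 151 in VPM and 76.2 to 192 in MGv. The part of glial RNA in the receptor differences was not tested.

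Epha7, which encodes a receptor graded across the thalamus, had the largest differences, at 128 to 193 CPM in dLG, 173 to 239 in VPM and 30.0 to 33.5 in MGv. Its log2 fold change over MGv was 2.31 ± 0.18 in dLG (edgeR adjusted p = 3.28e-06) and 2.79 ± 0.18 in VPM (adjusted p = 7.18e-07), with no overlap. Epha3 stood at 75.8 to 98.6 CPM in dLG, 49.7 to 66.5 in VPM and 25.6 to 27.9 in MGv, so that no 2 nuclei overlapped. The log2 fold change of Epha3 was 0.53 ± 0.13 for dLG against VPM (adjusted p = 0.0247) and 1.73 ± 0.15 for dLG against MGv (adjusted p = 8.59e-06). Epha4, which encodes a receptor that binds ephrins of both classes, was at 140 to 225 CPM in dLG, 150 to 252 in VPM and 94.7 to 109 in MGv. Its log2 fold change over MGv was 0.95 ± 0.19 in dLG and 1.10 ± 0.20 in VPM (edgeR adjusted p = 0.00521 and 0.00227). Epha5 was likewise higher than in MGv, by 0.86 ± 0.21 in dLG and 1.18 ± 0.21 in VPM (adjusted p = 0.0143 and 0.00215). These 4 receptors were thus lower in MGv than in both other nuclei, and Epha3, like Efna2, was also higher in dLG than in VPM. Epha7 went the other way there, with a log2 fold change of -0.47 ± 0.15 for dLG against VPM (edgeR adjusted p = 0.0760). Epha4 and Epha5 were not called between dLG and VPM (-0.15 and -0.33, edgeR adjusted p = 0.715 and 0.365). The contrasts share their libraries and were not tested against one another.

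**Figure D5:**
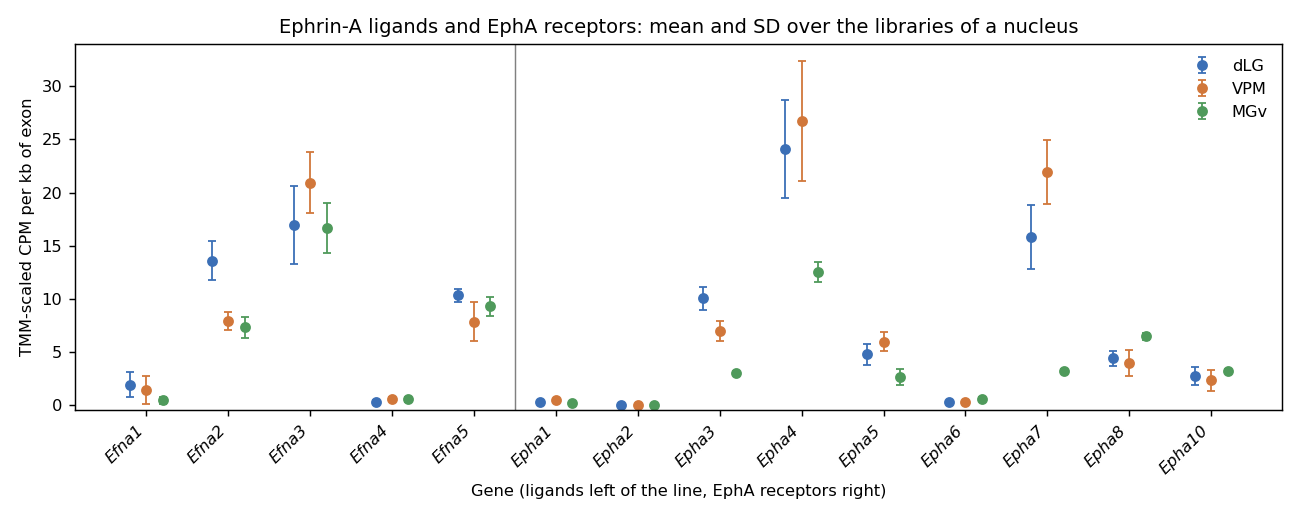
Mean TMM-scaled CPM per kb of exon with SD (y axis) over the 4 dLG, 4 VPM and 3 MGv libraries, for the 5 ephrin-A ligands and 9 EphA receptors (x axis). MGv lies below both other nuclei for Epha3, Epha4, Epha5 and Epha7, whereas Efna2 is high in dLG alone, at 13.6 against 7.93 and 7.30 CPM per kb.

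Ephrin-A ligands need other proteins for reverse signalling and release, since they have no domain inside the cell. Ngfr, which encodes the neurotrophin receptor p75 and serves as a co-receptor of ephrin-A on retinal axons, was at 1.00 to 1.74 CPM in dLG, 2.73 to 10.9 in VPM and 0.902 to 1.58 in MGv. It was lower in dLG than in VPM, with a log2 fold change of -2.43 ± 0.42, and higher in VPM than in MGv, with 2.68 ± 0.49 (edgeR adjusted p = 0.0025 and 0.00257). The other co-receptor genes of the list were Ret and Ntrk2, and Adam10 encodes the protease that sheds ephrin-A. In all, of these 4 genes 1 was higher in VPM than in dLG, 1 was higher in dLG than in MGv and 2 were higher in VPM than in MGv. Ntrk2 and Adam10 passed in no comparison. Of 8 genes that attach or remodel the GPI anchor, Gpaa1 alone passed, in VPM against MGv, where it was higher in MGv.

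In the cell that carries the receptor, EphA signals act on the cytoskeleton through exchange factors and adaptors. Of 14 such effector genes, 2 were higher in dLG and 4 in VPM in the comparison of these nuclei. In dLG against MGv 2 were higher in dLG and 5 in MGv, and in VPM against MGv 2 were higher in VPM and 1 in MGv. Ngef, which encodes the exchange factor ephexin 1, was at 3.15 to 5.97 CPM in dLG, 0.856 to 3.07 in VPM and 18.8 to 19.3 in MGv. It was lower in dLG than in MGv, with a log2 fold change of -1.95 ± 0.34, and lower in VPM than in MGv, with -3.49 ± 0.37 (edgeR adjusted p = 0.00193 and 3.5e-05). Ngef was also higher in dLG than in VPM, with 1.54 ± 0.34 (edgeR adjusted p = 0.013). Vav3, which encodes another exchange factor recruited by Eph receptors, shared the direction of Efna2, with 41.6 to 80.8 CPM in dLG, 24.4 to 30.5 in VPM and 16.3 to 30.2 in MGv. The log2 fold changes of Vav3 were 1.04 ± 0.23 for dLG against VPM and 1.27 ± 0.25 for dLG against MGv (edgeR adjusted p = 0.0117 and 0.00442). Anks1b, an adaptor gene, went the other way, at 70.0 to 85.8 CPM in dLG, 110 to 140 in VPM and 110 to 137 in MGv. The log2 fold changes of Anks1b were -0.71 ± 0.13 for dLG against VPM and -0.60 ± 0.14 for dLG against MGv (edgeR adjusted p = 0.00343 and 0.00946). Chn1 and Anks1 were also called lower in dLG, by -0.88 and -0.86 against VPM and by -0.55 and -0.89 against MGv. Vav3 alone of the 14 was called higher in dLG than in both other nuclei.

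The transmembrane ephrin-B ligands, the sister class, were described for comparison of direction. All 3 were higher in MGv than in VPM, 2 were higher in dLG than in VPM and 1 was higher in MGv than in dLG. That last call, of Efnb3 (-0.39 for dLG against MGv, edgeR adjusted p = 0.0886), was lost in 12 of 24 alternatives. Efnb3, the most abundant, stood at 175 to 212 CPM in dLG, 103 to 152 in VPM and 242 to 255 in MGv, and its log2 fold change of VPM against MGv was -0.94 ± 0.14 (edgeR adjusted p = 0.000438). Per length Efnb3 stood at 59.5 ± 4.97 CPM per kb in dLG, above the sum of all 5 ephrin-A genes there. Of 5 EphB receptor genes 4 were tested, and Ephb2 alone passed, with a log2 fold change of -0.93 ± 0.19 for VPM against MGv (adjusted p = 0.00476).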

How the data were processed

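The authors trimmed the reads (Trim Galore 0.6.1, cutadapt 2.3), aligned them to mm10 with STAR 2.7.0d and counted them in Ensembl 95 genes with featureCounts (Subread 1.6.4). Libraries were made with a SMARTer kit and read as 50 bases, single end. Use of strand and of multiply aligned reads is not given in the sources used here. What was deposited are raw counts of reads in each gene for 4 dLG, 4 VPM and 3 MGv libraries, neither normalized nor pooled. Groups and replicate numbers came from the titles. Positions and lengths came from GENCODE M21, which matched 54723 identifiers.

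All 11 libraries entered a single fit with 3 group means and no covariate in edgeR 4.0.16 (R 4.3.3), with default quasi-likelihood settings, filterByExpr and trimmed mean of M values (TMM) scaling. Tests were two-sided, with Benjamini-Hochberg adjustment over 15907 genes and a threshold of 0.1. DESeq2 1.42.0 and limma 3.58.1 served as alternatives. SE is the absolute log2 fold change over the square root of F. CPM is TMM-scaled, and log2 CPM uses a prior count of 2. The fit was tested on simulated counts. p-values measure the spread between libraries of pooled brains. Named genes were the 5 ligands, all genes of 6 pathway lists, neighbours within 100 kb and the 5 genes most like each called ligand. Members and lists were chosen with earlier results of these data known.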

Additional observations from a re-analysis of the deposited data

Results flagged for a closer look

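Of 10 sets of 4 libraries tested by Dixon's ratio (5 genes in dLG and in VPM), 3 held a library far from the others, where chance gives about 1 in 20. Efna1 was at 6.14 CPM in VPM replicate 3, against 1.33 to 1.43 CPM in the other VPM libraries. Efna4 was at 0.682 CPM in the same library, against 1.04 to 1.07 CPM, which rests on 11 counts against 22 to 24. Efna5 was at 45.2 CPM in dLG replicate 4, against 40.1 to 40.7 CPM in the other dLG libraries. VPM replicate 3 is the low-Hspa8 library of its nucleus and has the smallest TMM factor, 0.854, and the part of either in these values was not tested.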

How the results depend on the processing

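Efna2 kept its direction and call in dLG against VPM (0.71 to 0.87) and against MGv (0.81 to 1.00) in all 24 alternatives. The Efna1 call in dLG against MGv (2.15) was lost at a threshold of 0.05, with DESeq2 size factors (2.14) and with a replicate block (2.47). It was also lost in 10 of 11 fits that left out 1 library (range 1.62 to 2.74), and each of these left 1 ligand called, as did requiring 10 counts in every library (range 1 to 2). With limma voom 4 ligands were called in dLG against VPM, adding Efna1 (1.02), Efna3 (-0.48) and Efna4 (-1.52). In VPM against MGv 1 ligand, Efna1, was called with DESeq2 (1.73), with no count filter (1.69) and with a covariate for the low-Hspa8 libraries (1.71). Over all genes, calls in dLG against VPM were 1704, and 4414 with limma voom, 2618 without the low-Hspa8 libraries and 1093 to 2223 when 1 library was left out, lowest without VPM replicate 1 (1101) or 2 (1093). The causes were not tested. The replicate block left Efna2 at 0.76 and 0.89 and, beside the loss of the Efna1 call, changed no ligand call. Same-numbered libraries did not deviate together on average (mean r 0.016 over 10 pairs, -0.0050 over 30 others). The r of single same-numbered pairs ran from -0.20 to 0.48, and 4 of 11 libraries were closest to their own number. The low-Hspa8 libraries, which stood apart, carry different numbers, so these values cannot decide whether the numbers mark pairs. The numbers were not taken as pairs. Efna1 and Efna4 gave no value at 10 counts in every library, nor did Efna4 with thinned counts. Of 40 calls among pathway genes 28 were kept in every alternative and 0 reversed, and those of Epha7 and Efnb2 (dLG against VPM), Efnb3, Chn1 and Tiam1 (dLG against MGv), Epha1, Epha8 and Gpaa1 (VPM against MGv), Ret and Vav2 were lost in at least 1. Of these calls, that of Efnb3 was lost in 12 of 24 alternatives and that of Vav2 in VPM against MGv in 10 of 24. Low counts limit Efna1 and Efna4.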
